A study of Homo sapiens with 10 samples.

Results

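The monocarboxylate transporter genes SLC16A1, SLC16A3, SLC16A6, SLC16A7, SLC16A9, SLC16A10, SLC16A13 and SLC16A14, together with BSG, which encodes basigin, were described in RBM4 knockout and wild type HAP1 cells. These are 9 of the 58051 genes counted. They were picked by symbol around 1 measured value, the very low SLC16A7 level of the RBM4 knockout libraries, so the difference in SLC16A7 between knockout and wild type is given as a description, with no test. Proteins of the SLC16 family move small molecules across the plasma membrane. Some carry lactate, pyruvate and ketone bodies together with a proton, and others carry carnitine, aromatic amino acids or thyroid hormone. The lactate carriers MCT1 (SLC16A1) and MCT4 (SLC16A3) usually reach the cell surface bound to basigin, a glycoprotein with immunoglobulin domains. MCT2 (SLC16A7) is usually chaperoned by the related protein embigin.

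The study set RBM4 knockout (KO) cells against wild type cells of HAP1, a near-haploid human line derived from the KBM-7 leukaemia line. RBM4 is an RNA-binding protein that takes part in splicing and translation. Paired-end RNA sequencing covered RBM4 KO clone 1 (n = 3), RBM4 KO clone 2 (n = 2) and wild type (n = 3). A single-end pair consisted of 1 library labelled RBM4 KO clone and 1 wild type library, and the labels do not say which clone it was. Each KO group is 1 clone, so what belongs to RBM4 and what belongs to a clone cannot be told apart. This also holds where both clones differ from wild type in the same direction. Nothing in the labels says that replicates were separate cultures, and a p-value then reflects only how these libraries scatter, which may be technical. In bulk RNA, fewer cells expressing a gene and less RNA per cell cannot be told apart.

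Total counts ran between 33192095 and 55617525 per paired-end library and between 41265510 and 44140706 per single-end library. Levels are given as CPM, counts scaled to a common library size with TMM factors. RBM4 itself had 22.3 to 25.8 CPM in the 5 KO libraries and 78.7 to 79.9 CPM in the 3 wild type libraries. The log2 fold change of the mean of the clones over wild type was -1.70 (SE 0.0481, adjusted p = 1.11e-10), which went with the labels, although RBM4 reads were not absent. Here and below, an adjusted p comes from edgeR's quasi-likelihood test with Benjamini-Hochberg adjustment over all 20747 features, and a gene was called when it was below 0.05. Of 11 blood cell markers, TAL1 alone passed the filter on low counts, at a mean of 45.9 CPM, and the leukocyte marker PTPRC had at most 1 count per library. BCR and ABL1, whose fusion HAP1 carries, averaged 21.0 and 14.8 CPM. The summed level of 4 epithelial markers, mostly KRT18, was 56.3 to 64.3 CPM in clone 1, 68.6 to 75.4 CPM in clone 2, against 41.04 to 47.2 CPM in wild type, with CDH1 at no more than 1 count. Of 5 fibroblast markers only COL1A1 passed the filter, and COL1A2 and DCN were at 0. The marker sums were 18.6 to 22.3 CPM in clone 1, 26.2 to 26.7 CPM in clone 2, against 13.2 to 14.1 CPM in wild type. The part of these marker differences in the transporter results was not tested.

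SLC16A7 encodes MCT2, the family member with the highest affinity for pyruvate and lactate. The gene spans chr12:59596067-59789855 on the plus strand (GRCh38, as for all coordinates here), and it was almost silent in both KO clones. It had 0.453, 0.199 and 0.272 CPM in clone 1 (15, 11 and 11 counts), 0.322 and 0.276 CPM in clone 2 (13 counts in each), against 10.97, 9.67 and 10.35 CPM in wild type (462, 339 and 427 counts). Every KO library was thus far below every wild type library, with no value in between. Means were 0.308 ± 0.131 CPM in clone 1 (SD, n = 3), 0.299 ± 0.0322 CPM in clone 2 (SD, n = 2), against 10.3 ± 0.648 CPM in wild type (SD, n = 3). The mean of the clones was 34.9-fold lower than wild type, a log2 fold change of -5.12, with -5.14 for clone 1 and -5.10 for clone 2. The clones were also compared with each other. The gene was chosen for its low level in the KO libraries of both clones, so likeness between them is partly built in by that choice. Clone 2 and clone 1 differed by 0.039 on the log2 scale (SE 0.352, adjusted p = 0.988), and with 11 to 15 counts per library a difference of this size could not have been resolved.

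RefSeq (GRCh38.p14) gives SLC16A7 a pair of annotated start regions, and they are printed because they differ in CG content. Each window runs from 250 bases before to 50 bases after a start, is written 5' to 3' on the gene's strand, and has each CG pair in capitals. The first window, at chr12:59595779-59596078 (plus strand), has 21 CG pairs and a GC content of 62.7%. The second, at chr12:59689120-59689419 (plus strand) inside the gene, has 1 CG pair and a GC content of 38.0%.
SLC16A7, first start: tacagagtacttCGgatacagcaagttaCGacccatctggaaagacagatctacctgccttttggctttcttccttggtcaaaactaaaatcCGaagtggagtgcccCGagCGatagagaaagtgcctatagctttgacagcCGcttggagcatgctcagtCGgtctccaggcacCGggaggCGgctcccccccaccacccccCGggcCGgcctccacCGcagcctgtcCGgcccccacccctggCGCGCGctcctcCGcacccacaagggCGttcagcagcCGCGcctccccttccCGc
SLC16A7, second start: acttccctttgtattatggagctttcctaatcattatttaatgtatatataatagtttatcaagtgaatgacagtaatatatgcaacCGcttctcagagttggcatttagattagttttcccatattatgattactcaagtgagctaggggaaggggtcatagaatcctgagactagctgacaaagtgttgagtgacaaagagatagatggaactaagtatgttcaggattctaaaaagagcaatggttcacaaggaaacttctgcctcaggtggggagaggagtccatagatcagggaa
Over 35116 such windows of all genes the median was 14 CG pairs. At least 21 pairs were present in 39.5% of windows, and at least 1 pair in 96.0%. The counts are per gene, so they do not say from which start the wild type reads came.

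**Figure D1:**
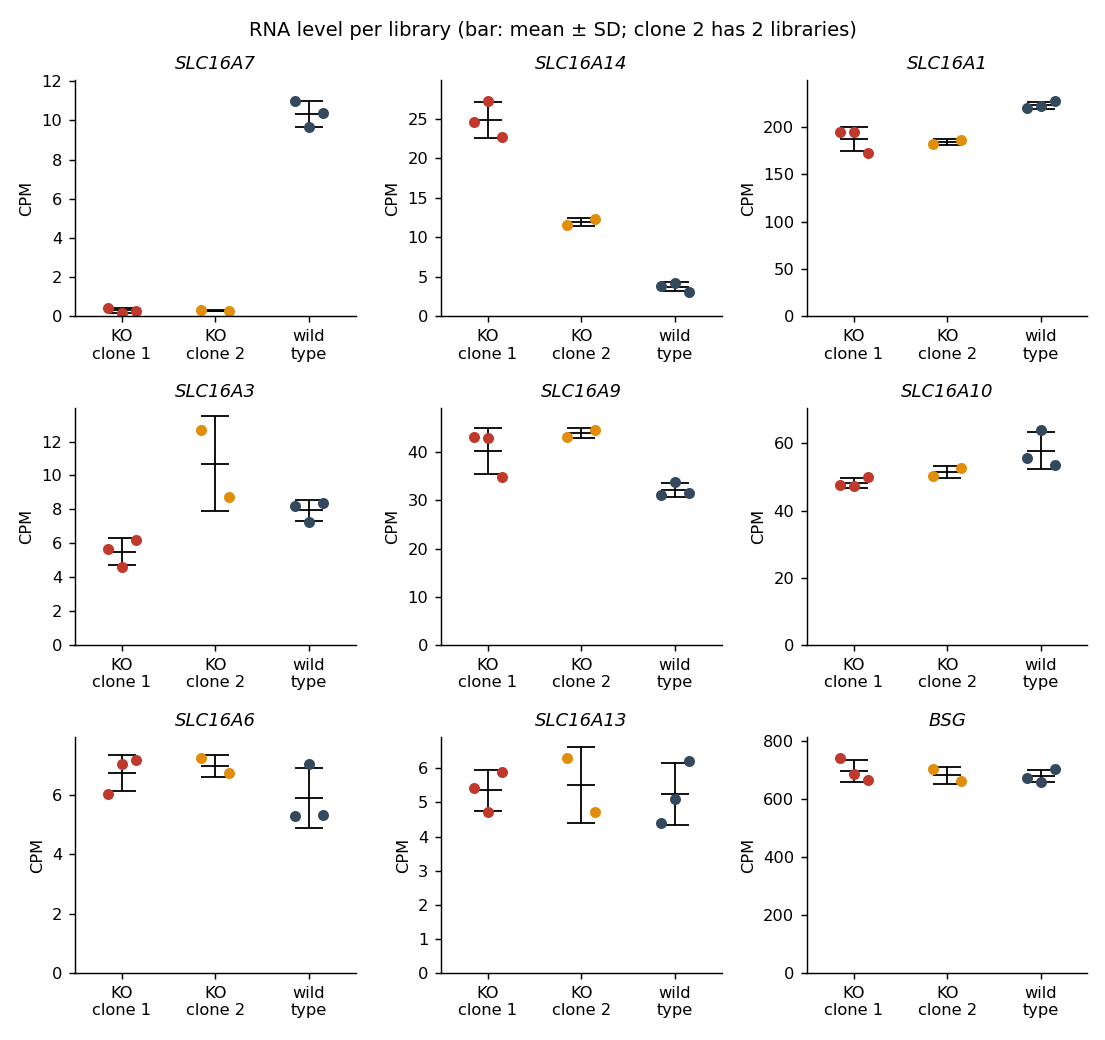
Expression of the 9 genes in each paired-end library, in CPM on linear axes that start at 0. Points are libraries (clone 1 n = 3, clone 2 n = 2, wild type n = 3) and bars show mean ± SD. SLC16A7 lies near 0 in the 5 KO libraries, SLC16A14 is higher in both clones, and BSG overlaps between groups.

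The plot of the 9 genes by library shows SLC16A7 and SLC16A14 on opposite sides of wild type. SLC16A14 encodes MCT14, whose substrates are little known, and lies at chr2:230034974-230068999 on the minus strand. Its level was 24.6, 27.2 and 22.7 CPM in clone 1, 11.6 and 12.3 CPM in clone 2, against 3.85, 4.25 and 3.15 CPM in wild type. The groups formed separate steps, with clone 1 highest and clone 2 between clone 1 and wild type. SLC16A14 rose by 2.21 on the log2 scale, or 4.61-fold, in the mean of the clones (SE 0.106, adjusted p = 1.24e-08). It rose 6.65-fold in clone 1 (log2 2.73, adjusted p = 3.82e-09) and 3.20-fold in clone 2 (log2 1.68, adjusted p = 8.68e-07). The clones themselves differed, clone 2 being lower than clone 1 by a log2 fold change of -1.06 (SE 0.114, adjusted p = 8.64e-05). These calls held under all alternatives run, in which the mean of the clones lay between 2.09 and 2.40.

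The RefSeq start window of SLC16A14 at chr2:230068875-230069174 (minus strand) is shown beside the SLC16A7 windows. It has 6 CG pairs, again in capitals, and a GC content of 45.7%, and 36.8% of all windows have at most as many pairs. The first SLC16A7 window has more pairs (21) and the second has fewer (1).
SLC16A14: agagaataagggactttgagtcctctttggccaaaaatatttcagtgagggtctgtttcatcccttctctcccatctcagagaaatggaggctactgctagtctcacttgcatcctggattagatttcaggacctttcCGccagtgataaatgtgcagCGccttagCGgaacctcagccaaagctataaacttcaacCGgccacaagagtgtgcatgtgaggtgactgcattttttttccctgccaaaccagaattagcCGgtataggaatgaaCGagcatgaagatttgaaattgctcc

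SLC16A1 (chr1:112911847-112957013, minus strand) encodes MCT1, the widely expressed carrier for lactate and pyruvate, and it was the most abundant transporter of the family here. It had 195, 194.6 and 172.8 CPM in clone 1, 181.8 and 186.2 CPM in clone 2, against 220, 222.4 and 227.2 CPM in wild type. Every KO library was below every wild type library, by a small margin. Averaged over the clones, SLC16A1 fell 1.2-fold (log2 -0.27, SE 0.0501, adjusted p = 0.00259), and this call held under all 18 alternatives. It fell in clone 1 (log2 -0.25, adjusted p = 0.00841) and in clone 2 (log2 -0.28, adjusted p = 0.0113). The clone 2 call was lost when wild type replicate 3 or either clone 2 library was left out, with an adjusted p of up to 0.143.

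SLC16A3 (chr17:82228397-82261129, plus strand) encodes MCT4, the low-affinity lactate exporter of glycolytic cells, and its level set the clones apart from each other. It had 5.68, 4.62 and 6.17 CPM in clone 1, 12.7 and 8.71 CPM in clone 2, against 8.22, 7.25 and 8.39 CPM in wild type. Clone 1 was below wild type in every library, and both clone 2 libraries were above it. Clone 2 was 1.96-fold higher than clone 1 (log2 0.97, SE 0.163, adjusted p = 0.00546). Without clone 2 replicate 1, the library with 12.7 CPM, the difference was 0.68 with an adjusted p of 0.0617. SLC16A3 fell in clone 1 against wild type (log2 -0.54, SE 0.151, adjusted p = 0.0284), a call that was lost under 4 of 17 alternatives (leaving out clone 1 replicate 2 or wild type replicate 1 or 3, and a library number term), with an adjusted p of up to 0.175. In clone 2 the log2 fold change of 0.42 did not pass the test (adjusted p = 0.122), and it passed under 5 of 17 alternatives, among them the replicate block (0.48, adjusted p = 0.0228). In the mean of the clones SLC16A3 showed -0.060 (adjusted p = 0.806), a value that averages clones of opposite sign. SLC16A3 shares part of its span with CSNK1D on the opposite strand, a gene at 150.0 CPM in wild type, so its values are uncertain where counting ignored strand.

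One of the 5 RefSeq start windows of SLC16A3, at chr17:82228792-82229091 (plus strand), is printed because it holds the core ACGTG, which is part of the element bound by hypoxia-inducible factors. The window has 2 matches, shown in capitals, and 51 CG pairs. The letters ACGTG, searched on both strands, occur in 21.4% of all windows, and at least 2 matches in 8.82%, so a match is common and is given as a description only. It is not a trait of SLC16A3 alone, since a window of SLC16A9 and a window of BSG also hold 2 matches each and that of SLC16A10 holds 1. A CACGTG site is counted on each strand, so 2 matches in another window can be 1 site. The SLC16A3 matches are separate sites.
SLC16A3: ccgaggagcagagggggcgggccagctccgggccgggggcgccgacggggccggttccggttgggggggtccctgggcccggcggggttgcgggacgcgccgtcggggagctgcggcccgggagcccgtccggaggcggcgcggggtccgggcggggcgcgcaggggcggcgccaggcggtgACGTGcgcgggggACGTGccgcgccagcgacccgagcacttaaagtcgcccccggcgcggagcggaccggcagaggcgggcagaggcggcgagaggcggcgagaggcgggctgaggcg

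SLC16A9 (chr10:59650761-59736002, minus strand) encodes MCT9, a carrier for carnitine and creatine. Its level was 43.2, 42.9 and 34.8 CPM in clone 1, 43.2 and 44.7 CPM in clone 2, against 31.2, 33.9 and 31.5 CPM in wild type. The lowest KO library, clone 1 replicate 3, lay just above the highest wild type library. Averaged over the clones, SLC16A9 rose 1.31-fold (log2 0.39, SE 0.0718, adjusted p = 0.00233), a call that held under all 18 alternatives. It rose in clone 2 (log2 0.45, adjusted p = 0.00443) and in clone 1 (log2 0.32, adjusted p = 0.0138). The clone 1 call was lost when clone 1 replicate 2 or wild type replicate 1 or 3 was left out, with an adjusted p of up to 0.0921.

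SLC16A10 (chr6:111087503-111231194, plus strand) encodes MCT10, which carries aromatic amino acids and thyroid hormone without a proton. It had 47.5, 47.3 and 50 CPM in clone 1, 50.2 and 52.7 CPM in clone 2, against 55.6, 64.0 and 53.6 CPM in wild type. KO libraries were all lower, but the highest of them came within 1 CPM of the lowest wild type library. SLC16A10 fell 1.16-fold when the clones were averaged (log2 -0.21, SE 0.0604, adjusted p = 0.0267). Its longest transcript has a GC content of 37.6%. Deviations from a gene's mean level over the 8 libraries followed GC content differently in the groups. The Spearman correlation across genes was -0.0496 to 0.392 in KO libraries and -0.414 to -0.249 in wild type libraries. After correction for GC content the log2 fold change of SLC16A10 was -0.069 (adjusted p = 0.539). The call was also lost when clone 2 replicate 1 or wild type replicate 1 or 2 was left out, and in the libraries numbered 1 to 5 in the column names (adjusted p = 0.0548). SLC16A7, with the lowest GC content of the 9 genes at 33.3%, was at -4.93 after the same correction.

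SLC16A6 (chr17:68267026-68291267, minus strand) encodes MCT7, known in zebrafish as a liver exporter of ketone bodies. It had 6.04, 7.02 and 7.16 CPM in clone 1, 7.23 and 6.72 CPM in clone 2, against 5.30, 7.05 and 5.31 CPM in wild type, and wild type replicate 2 lay within the KO values. Its log2 fold change of 0.23 did not pass the test (SE 0.116, adjusted p = 0.203). SLC16A13 (chr17:7036075-7040121, plus strand) encodes MCT13, a lactate carrier studied in mouse liver. It had 5.41, 4.73 and 5.90 CPM in clone 1, 6.29 and 4.72 CPM in clone 2, against 4.39, 5.11 and 6.21 CPM in wild type, and the groups overlapped throughout (log2 0.046, SE 0.138, adjusted p = 0.860). SLC16A6 lies wholly within ARSG, a gene of 5.14 CPM in wild type on the opposite strand, so the reads of the pair cannot be told apart if strand was ignored.

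BSG (chr19:571277-583493, plus strand), the chaperone, was the most abundant of the 9 genes and moved little. It had 740.5, 685.1 and 664.8 CPM in clone 1, 702.7 and 660.6 CPM in clone 2, against 674.0, 659.9 and 701.7 CPM in wild type. The highest and the lowest library of all 8 were clone 1 replicate 1 and wild type replicate 2, and the other values were interleaved. The fitted log2 difference was 0.022 (SE 0.0521, adjusted p = 0.815), and under the alternatives it lay between -0.11 and 0.088, on either side of 0.

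Of the 8 members other than SLC16A7, 4 were called at an adjusted p below 0.05 in the mean of the clones, against 18.0% of all features. SLC16A9 and SLC16A14 rose and SLC16A1 and SLC16A10 fell, against 9.87% of features called higher and 8.09% called lower. In clone 1 the count was 5 of 8, with 2 rising and 3 falling (16.0% of all features were called, 9.37% higher and 6.64% lower). In clone 2 it was 3 of 8, with 2 rising and 1 falling (10.8% of all features, 6.18% higher and 4.59% lower). Clone 2 against clone 1 gave 2 of 9 members, SLC16A3 higher and SLC16A14 lower, against 2.09% of all features, 1.1% higher and 0.993% lower. The genes were picked with these contrasts known, so the shares say nothing about the family as a whole. The median log2 fold change of the 8 members was 0.034 in the mean of the clones, beside 0.00203 for all features. All 9 genes passed the filter on low counts, SLC16A7 through its wild type libraries.

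**Figure D2:**
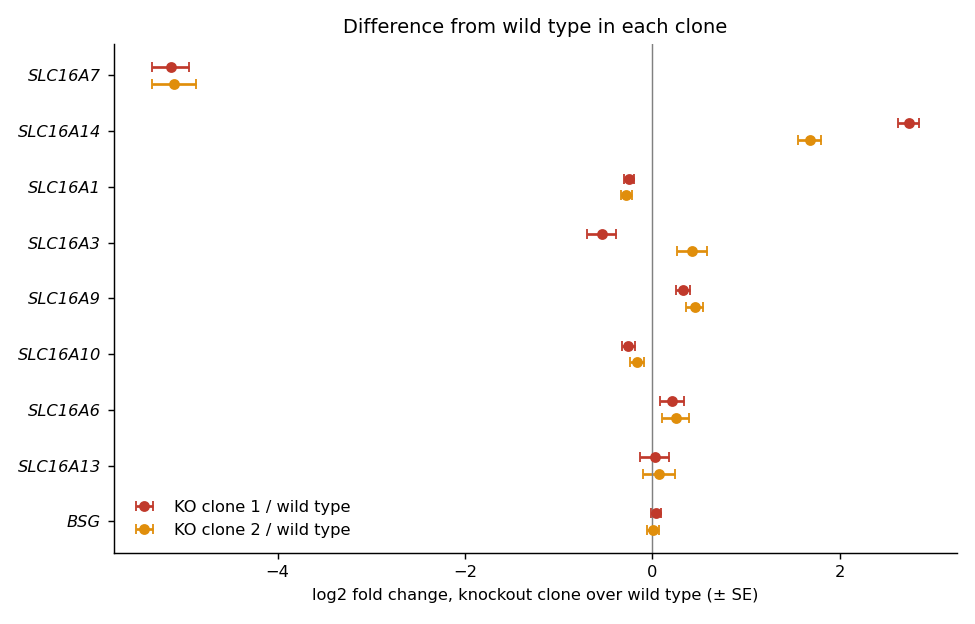
Log2 fold change of each gene against wild type for clone 1 and clone 2, with bars of ± 1 SE from the edgeR fit. SLC16A7 stands near -5.1 in both clones without a test, SLC16A14 differs between the clones (1.68 in clone 2, 2.73 in clone 1), and SLC16A3 lies on opposite sides of 0 (0.42 in clone 2, -0.54 in clone 1).

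The plot of fold change by clone places the other 6 genes within 0.5 of 0 on the log2 scale in both clones. Both clones share the same wild type libraries, so their fold changes are not independent of each other.

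Levels were compared between genes per kilobase of exon (CPM per kb, over the union of exons). In wild type the order was BSG (179 CPM per kb), SLC16A1 (42.0), SLC16A9 (7.27), SLC16A10 (5.14), SLC16A13 (2.51), SLC16A6 (1.45), SLC16A3 (0.884), SLC16A14 (0.758) and SLC16A7 (0.756). SLC16A14 overlapped both SLC16A3 and SLC16A7 in its libraries, so its place between them is not resolved, whereas every SLC16A3 library was above every SLC16A7 library. With the longest transcript as length SLC16A3 moved above SLC16A6 and SLC16A7 above SLC16A14. In clone 1 SLC16A14 ranked 4 of 9 with 5.02 CPM per kb, above SLC16A10. In clone 2 it ranked 6 with 2.42 CPM per kb and overlapped SLC16A13. SLC16A7 was last in both, with 0.0225 CPM per kb in clone 1 and 0.0219 CPM per kb in clone 2.

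**Figure D3:**
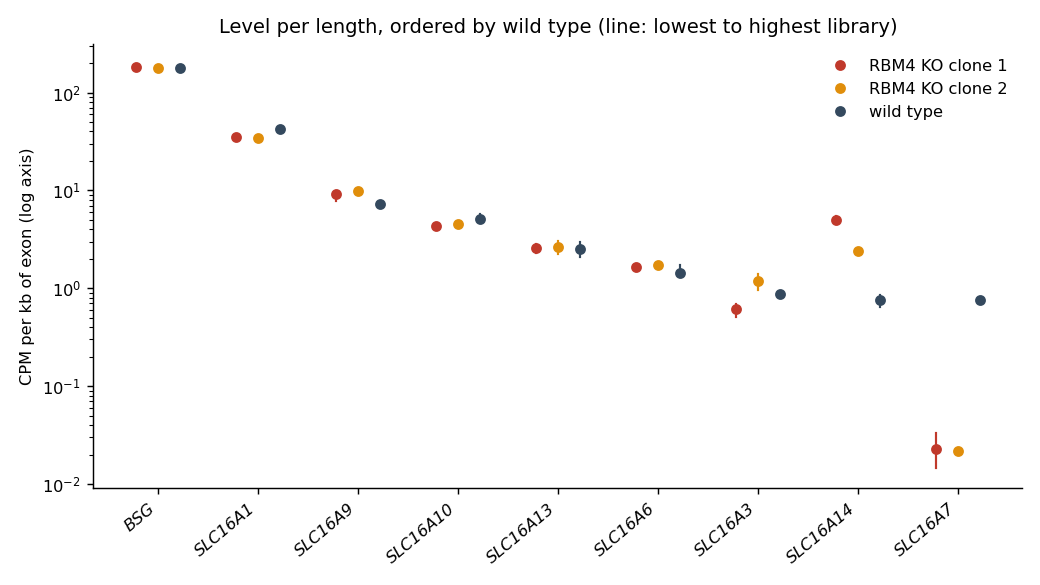
Mean level of each gene in CPM per kilobase of exon on a log axis, for clone 1, clone 2 and wild type, with bars from the lowest to the highest library. BSG and SLC16A1 lead in every group, SLC16A7 is last in both clones, and SLC16A14 moves up the order in the clones.

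As the plot of levels per length shows, SLC16A7 was a small part of the family's RNA even in wild type. Among the lactate and pyruvate carriers SLC16A1, SLC16A3 and SLC16A7, it made up 0.0391% to 0.0888% of the level per length in clone 1, 0.0561% to 0.066% in clone 2 and 1.63% to 1.86% in wild type. SLC16A1 made up 97.9% to 98.6% in clone 1, 96.0% to 97.3% in clone 2 and 96.0% to 96.5% in wild type. SLC16A14 took 8.24% to 9.09% of the level of the 8 transporters in clone 1, 4.12% to 4.35% in clone 2 and 1.04% to 1.39% in wild type. The ratio of BSG to SLC16A1 per length was 4.92 to 5.38 in clone 1, 4.96 to 5.41 in clone 2 and 4.15 to 4.32 in wild type, so it was above wild type in every KO library.

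The single-end pair has 1 library per genotype, so it has no replicate check and no test. Its log2 ratios have a prior count of 2 added, which makes ratios of low counts smaller in size than those of the CPM values. The paired-end fit did not use this prior. Intervals are exact at 95%, use no prior and cover counting error only. SLC16A7 had 12 counts (0.287 CPM) in the single-end KO library and 268 counts (6.18 CPM) in the single-end wild type library, a log2 ratio of -4.22 (interval -5.40 to -3.60). SLC16A14 had 415 counts in the KO library and 148 counts in the wild type library, a log2 ratio of 1.53 (1.27 to 1.82). Both genes thus differed in this pair with the sign they had in both clones. The KO library may come from a clone already described, so this is not an independent check. SLC16A7 was also chosen for its low KO level. SLC16A1 was lower in the KO library (7385 against 9627 counts, log2 ratio -0.33, -0.38 to -0.29), and so was SLC16A10 (1766 against 2123 counts, -0.21, -0.31 to -0.12). SLC16A9 was higher (1427 against 1227 counts, 0.27, 0.16 to 0.38). The intervals of SLC16A3 (-0.014), SLC16A6 (0.041) and SLC16A13 (-0.051) all included 0. BSG stood at -0.15 (-0.17 to -0.12) in this pair, beside 0.022 in the paired-end libraries, and without replicates this difference was not tested.

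**Figure D4:**
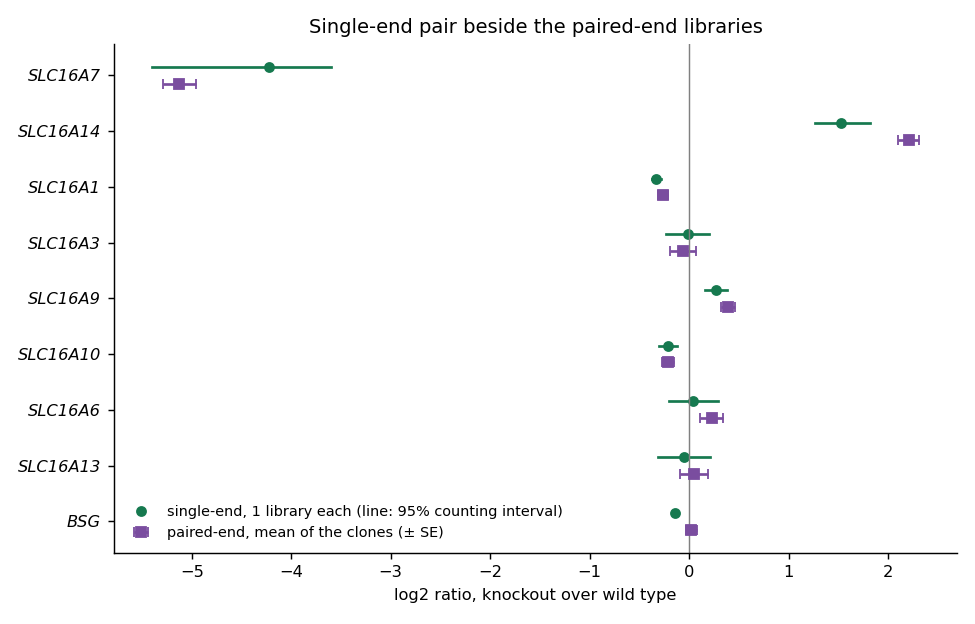
Log2 ratio of KO over wild type for each gene in the single-end pair (prior count of 2 added), with exact 95% counting intervals. Beside it is the paired-end log2 fold change of the mean of the clones with bars of ± 1 SE. SLC16A7 is lowest in both (-4.22 and -5.12) and SLC16A14 highest in both (1.53 and 2.21).

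The plot of the single-end pair beside the paired-end libraries sets values from tables that were normalized separately. The single-end table also held more reads for some family genes than any paired-end library. SLC16A8 had 93 counts in the single-end KO library and 49 counts in the single-end wild type library, but at most 2 in each paired-end library, and SLC16A4 had 220 and 164 counts, against 4 to 14 per paired-end library. ENSG00000275888, within the span of SLC16A3, had 292 and 295 counts there and at most 4 in a paired-end library. Whether counting used strand is not stated for either table.

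The low SLC16A7 level was also set beside its neighbours on chromosome 12. Within 1 Mb on either side the annotation has 18 other genes, and LRIG3, 675545 bases away, alone passed the filter. LRIG3 encodes a transmembrane protein with leucine-rich repeats. It had 9.76, 10.1 and 9.18 CPM in clone 1, 11.1 and 11.7 CPM in clone 2, against 11.1, 10.6 and 10.4 CPM in wild type, so clone 1 was slightly below and clone 2 at or above wild type. LRIG3 stood at a log2 fold change of -0.025 (SE 0.0753, adjusted p = 0.860). The other 17 neighbours had at most 6 counts in any paired-end library.

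Of 10 further SLC16 genes, chaperones and sodium-coupled carriers, 6 passed the filter, 1 rose and 1 fell, with a median log2 fold change of 0.11. For this and the following gene lists the background is the same, with 9.87% of all features called higher, 8.09% called lower and a median of 0.00203. EMB encodes embigin, the usual partner of MCT2. It had 30.6, 35.1 and 32.3 CPM in clone 1, 31.4 and 31.3 CPM in clone 2, against 40.1, 38.4 and 39.2 CPM in wild type, with no overlap. EMB fell in the mean of the clones (log2 -0.29, SE 0.0552, adjusted p = 0.00262), but with GC correction the call was lost (adjusted p of up to 0.0786). SLC16A5, which encodes MCT6, rose (log2 0.26, adjusted p = 0.0309), and 10 of 18 alternatives lost this call. NPTN, encoding the related chaperone neuroplastin, was at 0.0071 (adjusted p = 0.941).

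Changes among enzymes that make or use the cargo were small. Of 22 genes of lactate and pyruvate handling 17 passed the filter, 1 rose and 2 fell, with a median of -0.082, a count close to the 18.0% of all features called. PDP1, a phosphatase that switches the pyruvate dehydrogenase complex on, rose (log2 0.26, adjusted p = 0.00352). PDHB, a subunit of that complex, fell (log2 -0.27, adjusted p = 0.00409), and so did PDK1, a kinase that switches it off (log2 -0.29, adjusted p = 0.0111, lost with GC correction or without wild type replicate 1). The lactate dehydrogenases did not pass the test, LDHA at -0.12 (adjusted p = 0.140) and LDHB at -0.13 (adjusted p = 0.165). Of 12 genes of ketone body and carnitine handling 11 passed the filter, 4 rose and 2 fell, with a median of 0.13, beside 18.0% of all features called (9.87% higher, 8.09% lower). Among those that rose were CRAT, the carnitine acetyltransferase (log2 0.39, adjusted p = 0.00407), BDH2 and CPT1A. OXCT1 and BDH1, which act in the use of ketone bodies, fell by 0.20 and 0.23 on the log2 scale. The calls of BDH2, CPT1A, OXCT1 and BDH1 were each lost under 2 to 15 of 18 alternatives. In the single-end pair PDP1, BDH2 and CPT1A were higher and PDHB, OXCT1 and BDH1 lower in the KO library. The intervals of PDK1 (log2 ratio -0.069, -0.21 to 0.070) and CRAT (0.019, -0.12 to 0.16) there included 0.

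CD44 and CAV1 had the larger fold changes among genes for proteins known to bind basigin or to share complexes with it. Of 16 such genes 11 passed the filter, 4 rose and 0 fell, beside 9.87% of all features called higher and 8.09% called lower. The median was 0.083, and 7 of the 11 were not called. CD44, the hyaluronan receptor, had 9.55, 8.34 and 8.24 CPM in clone 1, 6.78 and 6.89 CPM in clone 2, against 1.92, 1.77 and 2.11 CPM in wild type. CAV1, the scaffold protein of caveolae, had 2.30, 2.96 and 2.67 CPM in clone 1, 3.32 and 4.59 CPM in clone 2, against 0.807, 0.970 and 0.824 CPM in wild type. For both, each KO library exceeded each wild type library. CD44 rose 3.97-fold (log2 1.99, SE 0.113, adjusted p = 7.31e-08) and CAV1 rose 3.75-fold (log2 1.91, SE 0.178, adjusted p = 7.96e-06). ITGA3, an integrin chain, rose (log2 0.49, adjusted p = 0.00290), as did SLC3A2, the CD98 heavy chain (log2 0.18, adjusted p = 0.0107, lost under 6 of 18 alternatives). In the single-end pair CD44 and CAV1 were also higher in the KO library (log2 ratios 0.95 and 1.07). There the ITGA3 interval included 0 (0.058, -0.14 to 0.26), and SLC3A2 was lower in the KO library (-0.071, -0.11 to -0.026).

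**Figure D5:**
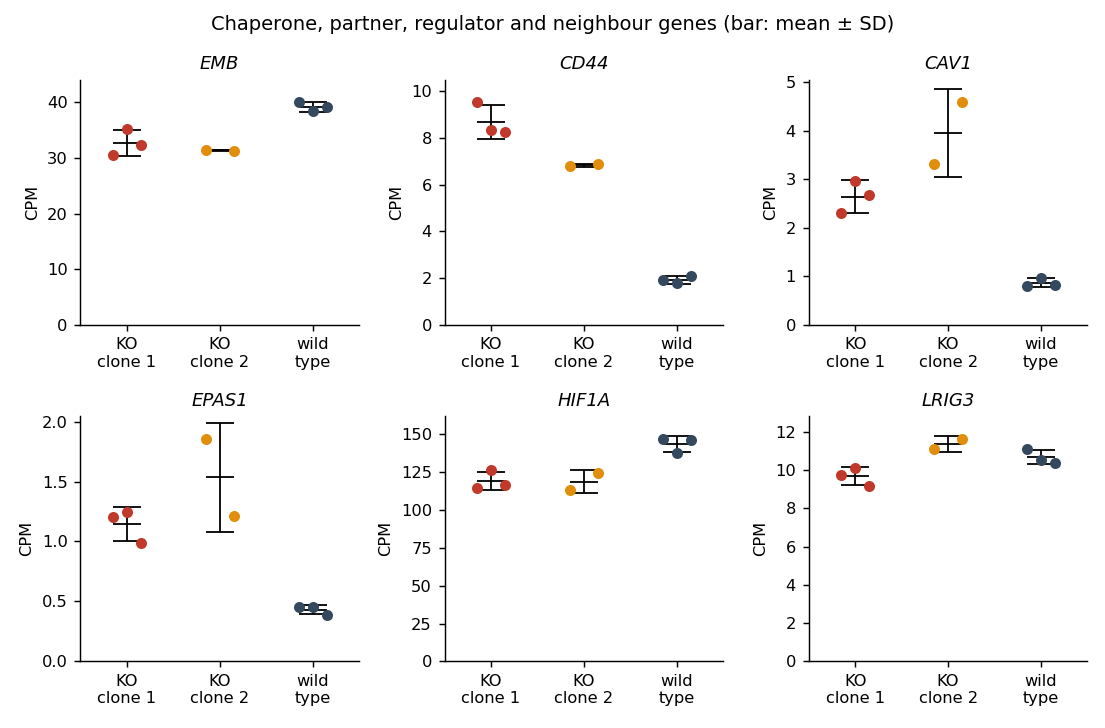
Expression of EMB, CD44, CAV1, EPAS1, HIF1A and LRIG3 in each paired-end library, in CPM on linear axes that start at 0, with points for libraries and bars of mean ± SD. CD44, CAV1 and EPAS1 are higher in all KO libraries, EMB and HIF1A are lower, and LRIG3 overlaps between groups.

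The plot of related genes includes a pair of regulators known to act on transporter expression. Of 11 such regulators 10 passed the filter, 1 rose and 3 fell, with a median of -0.028, beside 9.87% of all features called higher and 8.09% called lower. EPAS1, encoding HIF-2 alpha, averaged 1.15 ± 0.140 CPM in clone 1 (SD, n = 3), 1.53 ± 0.456 CPM in clone 2 (SD, n = 2), against 0.432 ± 0.0382 CPM in wild type (SD, n = 3), and rose 3.06-fold (log2 1.61, SE 0.237, adjusted p = 0.000411). HIF1A, encoding HIF-1 alpha, which is known to raise SLC16A3 transcription, fell (log2 -0.27, SE 0.0518, adjusted p = 0.00284), a call lost with GC correction. PRKAA2, a catalytic subunit of AMP-activated kinase, and NFE2L2, encoding NRF2, also fell, and both calls were lost under 4 or more alternatives.

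The 5 features whose pattern over the 8 paired-end libraries was nearest to that of SLC16A7, by Euclidean distance between centred log2 CPM, were ENSG00000274719, CAMK2D, LGALS8, ENSG00000257831 and SPOCK3. Distances were 1.08, 1.25, 2.07, 2.27 and 2.29. CAMK2D, a subunit of a calcium-dependent kinase, had 0 to 3 counts per KO library and 65 to 125 counts per wild type library. SPOCK3, encoding the proteoglycan testican-3, had 2 to 22 counts per KO library and 122 to 190 counts per wild type library. LGALS8, encoding galectin-8, had 14 to 33 counts per KO library and 312 to 326 counts per wild type library. The unnamed genes had fewer reads, ENSG00000274719 with 0 to 1 counts per KO library and 42 to 65 counts per wild type library, and ENSG00000257831 with 0 to 2 counts per KO library and 26 to 34 counts per wild type library. ENSG00000274719 lies within ALDH1A2 on the same strand, so reads of these genes may be shared. ALDH1A2 itself had 50.8 CPM in wild type and a log2 fold change of -7.69 in the mean of the clones. It is named through a feature chosen for this pattern, so no test of it is given. ENSG00000257831 overlaps HEATR5A on the opposite strand, a gene at 31.5 CPM in wild type. In the single-end pair CAMK2D had 3 counts in KO and 126 in wild type, and SPOCK3 had 6 in KO and 224 in wild type. LGALS8, which overlaps HEATR1 on the opposite strand, had 889 counts in KO and 1303 in wild type there, and ENSG00000257831 had 35 counts in KO and 57 in wild type. Both differences were much smaller than in the paired-end libraries, and ENSG00000274719 had 0 counts in KO and 65 in wild type. Ranked by Pearson correlation in place of distance, the 5 nearest features were others, ZNF837 first, so which genes come out as most alike depended on the measure.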

How the data were processed

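RNA of 10 HAP1 libraries was sequenced, and the tables hold counts per gene and per repeat subfamily as the authors deposited them, without normalization. Libraries came from a stranded mRNA kit, per the labels' protocols. The submitters' processing notes name STAR 2.5.2a and the build hg38 (GRCh38), and TEToolkit is the counting tool named in the names of the deposited tables. Its version, its strand setting and the gene models it used are not stated. Coordinates, lengths and GC content come from GENCODE 29, and the GC content of a gene is that of its longest transcript.

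The 9 genes, the gene lists and the tests were chosen with earlier results of these data known. Genes were named by rule: the 9 members, RBM4, EMB, the 5 features nearest to SLC16A7, and up to 4 called genes per list and direction by smallest p. One gene that this rule takes is not reported here. NPTN, LDHA, LDHB, LRIG3, SLC16A4, SLC16A8 and the overlapping genes are added as context. Counts of all features were filtered with filterByExpr, which kept 19683 of 58051 genes and 1064 of 1187 repeat subfamilies, then scaled by TMM and tested with the quasi-likelihood F test of edgeR 4.0.16 (R 4.3.3, robust, a mean for each of the 3 groups of the 8 paired-end libraries). P-values were adjusted by the Benjamini-Hochberg method over all features. Each SE was taken from the log2 fold change and the F statistic and is approximate. Likeness used log2 CPM with a prior count of 2, and the single-end log2 ratios used the same prior count. The single-end pair has exact 95% intervals, without a test, for genes with at least 20 counts.

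Alternatives were DESeq2 1.42.0 as test and as size factors, genes without repeats, no filter, a replicate block, GC correction, a library number term, the KO libraries as 1 group and each library left out. Fits on the libraries numbered 1 to 5 in the column names (all wild type, 1 of each clone) were added after the column names had been seen. Same-numbered replicates deviated together between the clones but not with wild type, so no block was used in the reported tests. Clone 2 has 2 libraries, so their deviations mirror each other and these correlations are not independent. In the column names wild type is numbered 1 to 3, replicate 1 of the clones 4 and 5, and the later KO replicates 11 to 13. The numbering thus partly follows genotype, and what it marks is not stated. No library copied another (chi-square per degree of freedom within groups 4.22 to 20.0). The code was tested on simulated data with 20340 features for the mean of the clones. There edgeR found 86% of 1.5-fold and 99% of 2-fold changes and called 9 unchanged features. The changed features were drawn from those with higher counts and changed alike in both clones. These rates therefore do not cover genes with low counts or differences between the clones.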

Additional observations from a re-analysis of the deposited data

Results flagged for a closer look

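SLC16A3 differed between the knockout clones, which carry the same labelled change. Clone 2 was higher than clone 1 by 0.97 on the log2 scale in edgeR's test (SE 0.163, adjusted p = 0.00546). Both clone 2 libraries were above all 3 wild type libraries and all 3 clone 1 libraries were below them, and the clone 2 replicates lay apart, at 12.7 and 8.71 CPM.

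SLC16A14 differed between the clones as well. The log2 fold change of clone 2 over clone 1 was -1.06 in edgeR's test (SE 0.114, adjusted p = 8.64e-05), with 11.6 and 12.3 CPM in the 2 clone 2 libraries and 22.7 to 27.2 CPM in the 3 clone 1 libraries. Both clones were above wild type.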

How the results depend on the processing

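The 5 KO libraries, 2 of them from clone 2, limit these comparisons, and 11 to 15 counts per KO library limit what can be said of SLC16A7 between clones. The log2 fold change of SLC16A7 in the mean of the clones lay between -5.30 and -4.75 over 18 alternatives. With 1 library left out, clone 2 is at times represented by 1 library, which was then assumed to vary like the others. The median log2 fold change of all features moved by less than 0.1 under every alternative run. Each alternative scaled the libraries to a common level, so a steady median is partly built in.

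Features called ranged with 1 library left out from 1847 to 4251 in the mean of the clones (3725 with all libraries, fewest when a wild type replicate was left out), from 1605 to 3229 in clone 1 (3321, fewest without wild type replicate 1 or 2), from 1033 to 2747 in clone 2 (2236, fewest without wild type replicate 1 or either clone 2 library) and from 224 to 418 in clone 2 against clone 1 (434, fewest without either clone 2 library). With no filter clone 2 against clone 1 gave 688, and the libraries numbered 1 to 5 gave 224. Members called ranged from 2 to 5 in clone 1 (fewest without clone 1 replicate 2 or wild type replicate 1 or 3) and from 1 to 2 in clone 2 against clone 1 (1 without clone 2 replicate 1). The replicate block gave 4248 called features in the mean of the clones, 3716 in clone 1, 2526 in clone 2 and 431 in clone 2 against clone 1, and same-numbered libraries correlated between -0.233 and 0.253 over 7 pairs (0.253 and 0.197 between the clones, at most 0.054 with wild type), so not every pair deviated together.

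Signs turned for differences within 0.1 of 0 on the log2 scale. In the mean of the clones SLC16A3 was at 0.11 with the library number term and 0.088 with the libraries numbered 1 to 5, and between -0.21 and 0.055 with 1 library left out. SLC16A13 was at -0.072 with GC correction, -0.029 with GC correction and block, and between -0.077 and 0.18 with 1 library left out. BSG was at -0.095 with GC correction, -0.11 with GC correction and block, and between -0.012 and 0.040 with 1 library left out. SLC16A7 in clone 2 against clone 1 was at -0.087 with the library number term, -0.50 with the libraries numbered 1 to 5, and between -0.25 and 0.37 with 1 library left out. Apart from the number of libraries and features fitted, the cause was not tested.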
